A study of Mus musculus with 38 samples.

Results

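Gfap, Glul, Vim and Apoe, 4 genes known from the macroglia of the retina, were followed in bulk RNA of mouse retina through 6 Ensembl transcripts of the 142699 in the deposited table. The transcripts were taken by identifier: ENSMUST00000067444 and ENSMUST00000077902 for Gfap, ENSMUST00000086199 for Glul, ENSMUST00000028062 for Vim, and ENSMUST00000174064 and ENSMUST00000003066 for Apoe. The 2 isoforms of Gfap and the 2 of Apoe were summed, and are also given apart. The sums cover these transcripts and not every transcript of each gene. All 6 of 6 had a count and passed the filter on low counts.

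The study compared retinas of mice that were wild type for Kdm3b at 1, 6, 12 and 18 months of age and of mice heterozygous for Kdm3b at 12 months, with 3 libraries in each of these 5 groups. Kdm3b encodes a histone demethylase that acts on lysine 9 of histone H3. The labels give neither the nature of the Kdm3b allele nor the strain, the sex or the number of animals behind a library. The table pairs no transcript with a gene name, so the level of Kdm3b, markers of other retinal cell types and further genes of the glial pathways were not analysed here. Because the labels do not say that the replicates were separate animals, the p-values reflect only how these libraries spread, which may be technical.

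Müller cells are the main macroglia of the retina and span its whole thickness, and astrocytes lie along its inner surface. GFAP and vimentin are proteins of the intermediate filaments of these cells, and GFAP is widely used as a marker of glial reaction to injury. Glutamine synthetase, the product of Glul, turns glutamate taken up from synapses into glutamine, and in the retina it is a classical marker of Müller cells. Apolipoprotein E carries lipid between cells and is made in the retina mainly by Müller cells. In whole tissue, fewer cells of a type and less RNA per cell cannot be told apart.

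RefSeq places the genes, on mouse build GRCm38.p6, at chr11:102887336-102897200 (Gfap), chr1:153899929-153909723 (Glul), chr2:13574311-13582826 (Vim) and chr7:19696244-19701310 (Apoe). The 100 bases before a RefSeq start of each gene are printed for reference, and no relation of their letters to the levels was tested. For Apoe the RefSeq promoter table lists 3 starts, and the window is that of the outermost of them, which lies inside the span given for the gene. The windows are chr11:102897201-102897300 on the minus strand for Gfap, chr2:13574211-13574310 on the plus strand for Vim, chr1:153899829-153899928 on the plus strand for Glul, and chr7:19699189-19699288 on the minus strand for Apoe, each written 5′ to 3′. Capitals mark matches to 3 promoter motifs, the TATA box (TATAAA), the GC box (GGGCGG) and the CCAAT box (CCAAT, or ATTGG on the other strand).
Gfap: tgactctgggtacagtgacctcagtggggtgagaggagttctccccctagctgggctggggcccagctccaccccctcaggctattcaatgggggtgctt
Vim: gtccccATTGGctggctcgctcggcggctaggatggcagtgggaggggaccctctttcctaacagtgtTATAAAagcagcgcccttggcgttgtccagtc
Glul: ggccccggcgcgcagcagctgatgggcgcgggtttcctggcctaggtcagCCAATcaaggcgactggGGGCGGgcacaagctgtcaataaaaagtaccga
Apoe: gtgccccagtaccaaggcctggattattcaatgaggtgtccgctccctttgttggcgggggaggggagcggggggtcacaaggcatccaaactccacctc

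The CCAAT box was in the windows of both Glul and Vim, and on either strand in 18.9% of 32851 windows of the same length. Vim also held the TATA box, found in 5.56% of windows, and Glul the GC box, found in 24.7%. The window of Gfap and the printed window of Apoe held none of the 3, and the other starts of Apoe were not searched. The motifs TTCNNNGAA, bound by STAT factors, and TGANTCA, bound by AP-1, were in 2.55% and 2.73% of all windows and in none of these 4. A match describes letters only.

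Library totals ran from 9569310 to 32851550 expected counts. All 3 wild-type libraries at 12 months were shallower than every wild-type library of the other ages, so depth and that age cannot be told apart. In 4 libraries more than 15% of 35768 well-covered transcripts were at 0: the second and the third at 1 month (24.8% and 19.9%), the second at 6 months (28.4%) and the first at 18 months (18.6%). The other 11 libraries were between 4.49% and 14.03%. The value of 14.03% was that of the third heterozygous library, which also had the smallest total, 9569310. These 4 are called the many-zero libraries below.

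Levels are given as CPM, counts scaled to a common library total after TMM normalisation. They are compared between libraries for 1 gene at a time, since they are not divided by transcript length. Gfap rested on 90 to 577 expected counts per library, Vim on 802 to 2927, Apoe on 290 to 2186 and Glul on 22026 to 71266.

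Gfap was at 15.8, 30.6 and 24.0 CPM in the 3 wild-type libraries at 1 month, and at 4.57, 11.1 and 9.79 CPM at 6 months. It was at 9.90, 16.4 and 12.9 CPM at 12 months and at 15.0, 12.1 and 11.2 CPM at 18 months. The 1-month libraries were the highest of the wild-type ages apart from the second at 12 months, which lay above the lowest of them, and the first library at 6 months was the lowest of all 15. In the Kdm3b heterozygous retinas Gfap was at 14.9, 9.88 and 24.9 CPM. The third heterozygous library lay above all 3 wild-type libraries of its age and the second just below them. In order of mean level the groups were 1 month (23.4 ± 7.40, SD, n = 3), heterozygous 12 months (16.6 ± 7.67), 12 months (13.1 ± 3.25), 18 months (12.8 ± 2.03) and 6 months (8.50 ± 3.47). Neighbours in this order overlapped, except that all libraries at 6 months lay below those at 18 months. The gap there was narrow, between 11.1 and 11.2 CPM. The share of all transcripts without overlap between these ages was not computed. The second and the third library at 1 month, the higher ones of that age, were many-zero libraries. Without the many-zero libraries the mean was 15.8 CPM at 1 month (1 library), 16.6 CPM in the heterozygous group and 13.1 CPM at 12 months.

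Vim was at 86.0, 54.4 and 81.5 CPM at 1 month, and at 84.5, 68.1 and 104 CPM at 6 months. It was at 84.7, 111 and 104 CPM at 12 months and at 78.1, 47.2 and 43.8 CPM at 18 months. Every library at 18 months lay below every wild-type library at 12 months, and 18.7% of abundant transcripts (mean of at least 10 CPM) did the same. The second and the third library at 18 months were the lowest of all 15 for Vim. In the heterozygous retinas Vim was at 97.2, 86.7 and 166 CPM, and the third of these was the highest of all 15. The group means were 116 ± 42.8 (heterozygous), 100.0 ± 13.6 (12 months), 85.6 ± 18.1 (6 months), 74.0 ± 17.1 (1 month) and 56.4 ± 18.9 CPM (18 months; SD, n = 3), and neighbours in this order overlapped.

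Glul was at 2068, 2302 and 2387 CPM at 1 month, and at 2207, 1616 and 2107 CPM at 6 months. It was at 2300.3, 2694 and 2612 CPM at 12 months and at 2162, 1462 and 1470 CPM at 18 months. The 12-month wild-type libraries lay above all those at 6 and at 18 months, as was so for 15.7% and 18.7% of abundant transcripts respectively. In the heterozygous retinas Glul was at 2366, 2034 and 3075 CPM, on both sides of the wild-type range at that age. The group means were 2535 ± 208 (12 months), 2492 ± 532 (heterozygous), 2253 ± 165 (1 month), 1977 ± 317 (6 months) and 1698 ± 402 CPM (18 months; SD, n = 3), again with overlap between neighbours.

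Apoe was at 37.1, 60.4 and 107 CPM at 1 month, and at 23.3, 21.6 and 64.0 CPM at 6 months. It was at 17.4, 61.5 and 44.5 CPM at 12 months and at 51.5, 26.7 and 24.4 CPM at 18 months. In the heterozygous retinas it was at 32.3, 40.5 and 88.7 CPM. Every group overlapped every other. The group means were 68.0 ± 35.4 (1 month), 53.8 ± 30.5 (heterozygous), 41.1 ± 22.2 (12 months), 36.3 ± 24.0 (6 months) and 34.2 ± 15.0 CPM (18 months; SD, n = 3).

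**Figure D1:**
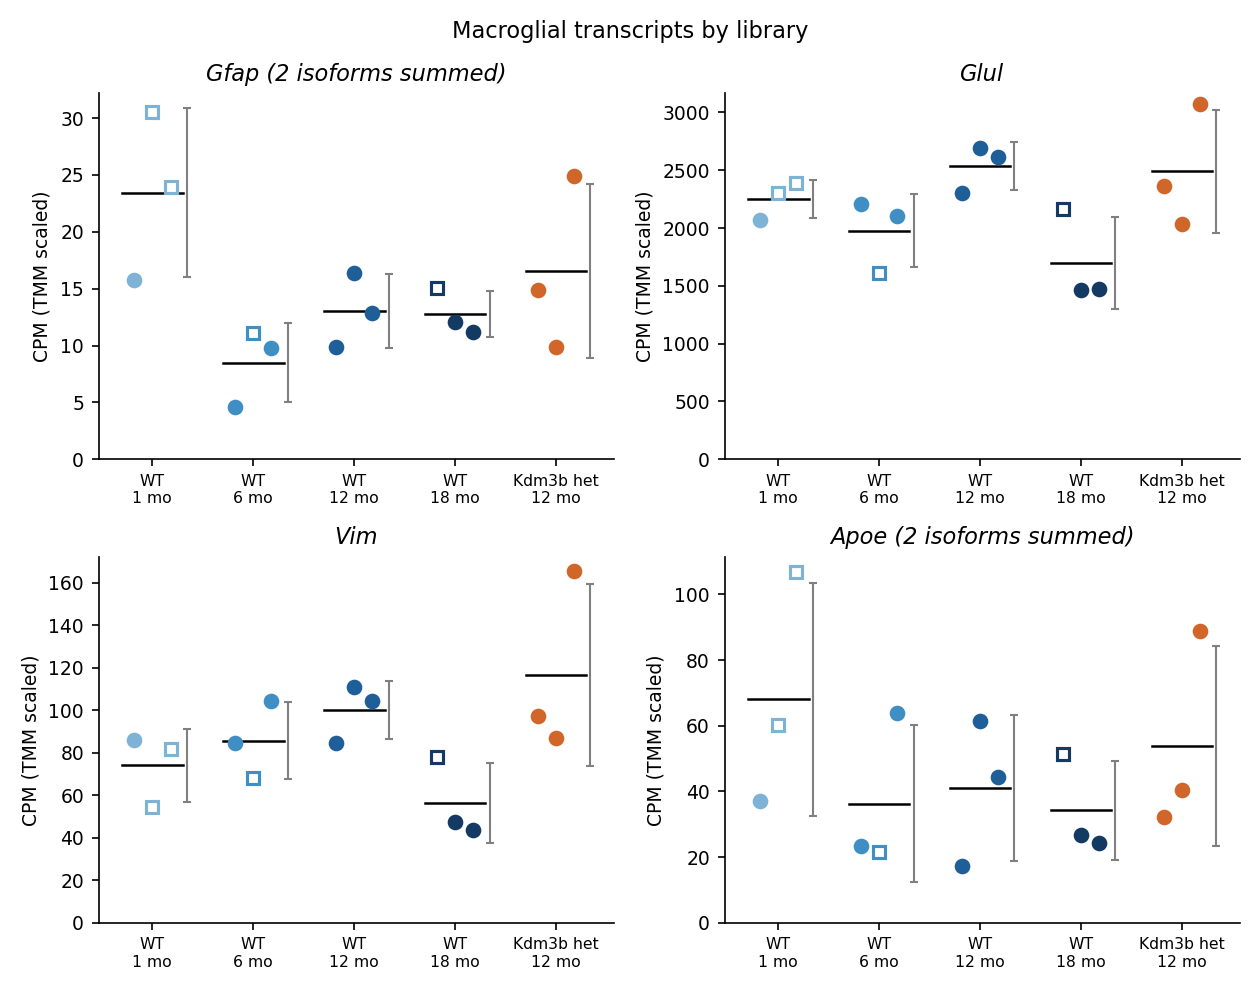
Level of each gene in CPM, 1 point per library, by group, with the group mean and SD over 3 libraries. Gfap was highest on average at 1 month (23.4 CPM) and lowest at 6 months (8.50 CPM), and Vim and Glul were lowest at 18 months (56.4 and 1698 CPM). Without the many-zero libraries Gfap was at 15.8 CPM at 1 month (1 library), below 16.6 CPM in the heterozygous group.

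The genes differed in how closely replicate libraries resembled each other. The SD within a group was 7.34% to 23.7% of the mean for Glul, 13.6% to 36.8% for Vim, 15.9% to 46.3% for Gfap and 44.0% to 66.1% for Apoe. The highest library was 2.104 times the lowest for Glul, 3.78 times for Vim, 6.13 times for Apoe and 6.69 times for Gfap. edgeR's biological coefficient of variation was 0.252 for Glul, a value that only 0.933% of 14361 abundant transcripts undercut. It was 0.34 for Vim, 0.492 for Gfap and 0.553 for Apoe, against a median of 0.462 over those transcripts.

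The first comparison asked whether retinas heterozygous for Kdm3b differed from wild type at 12 months. None of the 4 genes passed the test and all 4 overlapped between the groups. By edgeR's quasi-likelihood test the log2 difference of heterozygous from wild type was 0.34 for Gfap (SE 0.46, 95% interval -0.65 to 1.34, Benjamini-Hochberg adjusted p = 1). It was 0.22 for Vim (SE 0.30, -0.43 to 0.87), -0.03 for Glul (SE 0.19, -0.44 to 0.38) and 0.39 for Apoe (SE 0.59, -0.89 to 1.67), each with an edgeR adjusted p of 1. The interval was the narrowest for Glul and the widest for Apoe.

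The third heterozygous library was the highest of its group for all 4 genes, and over all 15 libraries ranked 1 for Glul and Vim and 2 for Gfap and Apoe. It also had the smallest total of all 15 and 14.03% of well-covered transcripts at 0, and the part of either was not tested. Without this library the log2 differences were -0.070 for Gfap, -0.12 for Vim, -0.20 for Glul and -0.17 for Apoe, so that 3 of 4 turned direction. Of the 53950 rows tested, 0% passed the adjusted threshold for heterozygous against wild type. An unadjusted p under 0.05 was reached by 1.34% (723), and calls numbered 393 with DESeq2 and 87 with limma's voom. Among abundant transcripts 2.69% were higher and 7.27% lower without overlap, against 0 of the 4 genes. On mean log2 CPM the median difference of the 4 genes was 0.219, beside -0.133 over all abundant transcripts, and with median-ratio scaling 0.296 beside -0.0559.

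Between 1 and 6 months the largest difference of the 4 genes was in Gfap. Its groups did not overlap, and 8.50 CPM at 6 months stood against 23.4 CPM at 1 month. The log2 difference was -1.46 (SE 0.468, 95% interval -2.48 to -0.45), for which edgeR's quasi-likelihood test gave an unadjusted p of 0.00802 and an adjusted p = 1. Of abundant transcripts 3.47% were lower and 4.73% higher without overlap, 4.53% of those tested had an unadjusted p under 0.05, and 0% passed after adjustment. Calls numbered 726 with DESeq2 and 0 with limma's voom. Leaving out the many-zero libraries, the Gfap difference was -1.15, with 1 library left at 1 month. Apoe differed by -0.91 (-2.19 to 0.38), Glul by -0.19 (-0.60 to 0.22) and Vim by 0.21 (-0.44 to 0.86), all overlapping, and without the many-zero libraries Apoe was at 0.22 and Glul at 0.054. Single libraries moved these values: Apoe was at -1.59 without the third library at 6 months and -0.42 without the third at 1 month, Glul at -0.055 without the second at 6 months, and Vim at 0.031 without the second at 1 month. On mean log2 CPM the median of the 4 was -0.58, beside 0.0316 over all abundant transcripts, and with median-ratio scaling -0.615 beside -0.00236.

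Between 6 and 12 months Glul was the only one of the 4 without overlap, at 2535 CPM against 1977 CPM. Its log2 difference was 0.36 (SE 0.190, 95% interval -0.05 to 0.77, edgeR's quasi-likelihood test, unadjusted p = 0.0811, adjusted p = 1). At these ages 15.7% of abundant transcripts were higher and 6.89% lower without overlap and 0% of those tested passed after adjustment, with 4.46% at an unadjusted p under 0.05. Calls numbered 744 with DESeq2 and 64 with limma's voom. Gfap differed by 0.62 (-0.38 to 1.61), Vim by 0.22 (-0.43 to 0.87) and Apoe by 0.18 (-1.10 to 1.46). Gfap was at 0.26 without the first library at 6 months, Vim at 0.086 and Glul at 0.23 without the second, and Apoe at -0.22 without the second at 12 months. On mean log2 CPM the median of the 4 was 0.303, beside 0.184 over all abundant transcripts, and with median-ratio scaling 0.18 beside 0.0627. On that scale Glul was higher than the median of all by 0.185 with TMM.

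Between 12 and 18 months Glul and Vim were both lower without overlap, and Gfap and Apoe overlapped between the ages. Glul was at 1698 CPM at 18 months against 2535 CPM at 12 months, a log2 difference of -0.58 (SE 0.190, 95% interval -0.99 to -0.17). Vim was at 56.4 CPM against 100.0 CPM, a difference of -0.83 (SE 0.303, -1.48 to -0.17). In edgeR's quasi-likelihood test the unadjusted p was 0.00952 for Glul and 0.0172 for Vim, and the adjusted p was 1 for both. On mean log2 CPM the differences were -0.6 for Glul and -0.865 for Vim, which is -0.447 and -0.712 relative to the median of -0.153 over all abundant transcripts.

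The libraries at 12 months were also the shallower ones, and the background was large. Levels without overlap were lower in 18.7% and higher in 6.35% of abundant transcripts, 2.97% of those tested had an unadjusted p under 0.05, and 0.00185% (1) passed after adjustment. With limma's voom and weights for library quality, both genes passed, at -0.77 for Glul (adjusted p = 0.00508) and -1.13 for Vim (adjusted p = 0.00939), and 1.2% of those tested were called lower. Over all alternatives the adjusted p ran from 0.00508 to 1 for Glul and from 0.00939 to 1 for Vim. The weights were 0.239, 2.84 and 1.92 for the libraries at 18 months, so the first, a many-zero library, counted least. At 12 months they were 1, 3.96 and 5.17, so the second and the third counted most. These were the shallowest of that age, and held its highest Glul and Vim. The part of the weights in these calls was not tested. Without the first library at 18 months edgeR gave -0.80 for Glul and -1.14 for Vim. Gfap differed by -0.03 (-1.02 to 0.96), a value whose sign turned with the scaling, and Apoe by -0.26 (-1.54 to 1.01). Apoe was at -0.69 without the first library at 18 months and at 0.14 without the second at 12 months. On mean log2 CPM the median of the 4 was -0.384, and with median-ratio scaling -0.296 beside -0.0657 over all abundant transcripts.

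Over the whole span from 1 to 18 months Gfap did not overlap between the groups, and none of the 4 genes passed the test. The log2 difference of 18 from 1 month was -0.88 for Gfap (SE 0.462, 95% interval -1.88 to 0.12, edgeR adjusted p = 0.847) and -0.41 for Glul (-0.82 to 0.0028, edgeR adjusted p = 0.836). It was -0.39 for Vim (-1.04 to 0.26, edgeR adjusted p = 1) and -0.99 for Apoe (-2.28 to 0.30, edgeR adjusted p = 0.909). Here 9.22% of abundant transcripts were lower and 6.9% higher without overlap, 5.91% of those tested had an unadjusted p under 0.05, and 0.00185% (1) passed after adjustment. With the many-zero libraries left out, Gfap was at -0.45, Apoe at -0.54, Vim at -0.92 and Glul at -0.50, again with 1 library at 1 month. Without the first library at 18 months alone, Vim was at -0.76 and Glul at -0.69, and without the third at 1 month Apoe was at -0.51. On mean log2 CPM the median of the 4 was -0.631, beside 0.0458 over all abundant transcripts, and with median-ratio scaling -0.701 beside -0.0223. The age comparisons share groups, so their values are not independent.

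A test for any difference among the 4 wild-type ages gave unadjusted p-values of 0.0446 for Gfap, 0.0502 for Glul, 0.0926 for Vim and 0.328 for Apoe, and after adjustment edgeR's quasi-likelihood test gave 1 for each. The share of all tested with an unadjusted p under 0.05 was 3.59%, and 0% passed after adjustment, while DESeq2 called 459 and limma's voom 16. Over the 5 pairwise comparisons 0 of 20 tests of the 4 genes passed, 3 of 20 had an unadjusted p under 0.05 and 5 of 20 were without overlap. Of all rows tested, 1.34% to 5.91% per comparison had an unadjusted edgeR p under 0.05. Of abundant transcripts, 2.69% to 18.7% per comparison and direction were without overlap. The count of 5 of 20 covers either direction, so it cannot be set directly against these shares of 1 direction. From 12 to 18 months, where 2 of the 5 fell, 18.7% of abundant transcripts were lower and 6.35% higher without overlap. The shares in both directions for the other comparisons are given above. The comparisons share groups, so the 20 tests are not independent and the counts are a description.

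**Figure D2:**
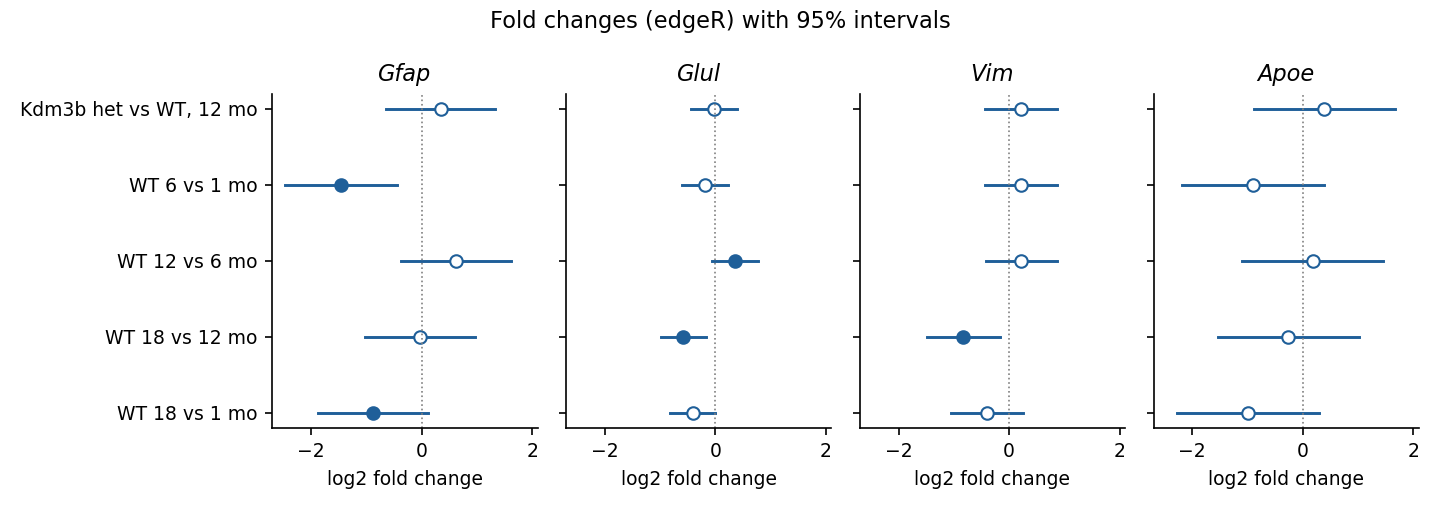
Log2 difference of each gene in the 5 comparisons, with 95% intervals from edgeR's quasi-likelihood fit. The intervals of Gfap from 1 to 6 months (-2.48 to -0.45) and of Glul and Vim from 12 to 18 months (-0.99 to -0.17 and -1.48 to -0.17) lie below 0, and no adjusted p passed 0.05.

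The 2 Gfap isoforms were unequal in every library, with ENSMUST00000067444 the major one. The minor isoform, ENSMUST00000077902, made up 9.35%, 7.45% and 5.96% of the sum at 12 months and 5.92%, 7.79% and 4.62% in the heterozygous retinas. At 18 months its share was 0, 6.995% and 6.41%, at 1 month 7.64%, 0 and 0, and at 6 months 3.14%, 0 and 0. It was at 0 in 5 of 15 libraries, which were all 4 of the 4 many-zero libraries and 1 of the 11 others. Taken as 3 counts of the sum, a limit below the exact binomial bound drawn in the plot of shares, a count of 0 allows a share of up to 0.52% and 0.611% at 1 month, 1.42% and 1.74% at 6 months and 0.952% at 18 months.

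The share of the minor Gfap isoform was higher at 12 than at 6 months by 6.54 percentage points, without overlap (2-sided exact permutation test, p = 0.1, the smallest that 3 against 3 libraries allow). The only share above 0 at 6 months rested on 2.83 counts of 90. Its exact binomial interval, 0.693% to 9.43%, covers every share at 12 months. The second library at 6 months, at 0, was a many-zero library. Isoform shares of other genes were not examined. Heterozygous and wild-type retinas differed by -1.48 points (exact permutation p = 0.4), and by -0.594 without the first wild-type library. The counts behind the minor isoform were at most 26.58 in any library. The Gfap sum was within 0.02 of a whole number in 14 of 15 libraries, while the major isoform was so in 5 and the minor one, leaving aside its zeros, in 1, so the estimation divided reads between the 2. The major isoform differed by -1.45 between 1 and 6 months (SE 0.490, edgeR unadjusted p = 0.0112, adjusted p = 1), close to the value of the sum.

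For Apoe the minor isoform, ENSMUST00000003066, varied widely within groups. Its share was 0, 5.94% and 0 at 1 month, 27.9%, 9.26% and 1.63% at 6 months, and 0, 0.414% and 6.78% at 12 months. It was 44.2%, 0 and 0 at 18 months and 12.7%, 1.05% and 20.5% in the heterozygous retinas. The first library at 18 months stood far above its 2 replicates (exact binomial interval 41.2% to 47.2%), in which a count of 0 allows up to 0.662% and 0.644% by the limit of 3 counts. Reads carry no molecular identifiers, so these intervals and limits cover counting error only.

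The major Apoe isoform alone, ENSMUST00000174064, was at 26.6 ± 2.16 CPM (SD, n = 3) at 18 months, where the sum was at 34.2 ± 15.0. Its log2 difference of 18 from 1 month was -1.33 (SE 0.587), for which edgeR's quasi-likelihood test gave an unadjusted p of 0.0414 and an adjusted p = 0.836. The sum differed by -0.99 (edgeR unadjusted p = 0.12), and 5.91% of rows in the fit with the sums had an unadjusted p under 0.05. In the first library at 18 months, a many-zero library, 476.91 of 1078.98 counts were assigned to the minor isoform. The share of the minor isoform differed by 9.01 points between heterozygous and wild-type retinas (exact permutation p = 0.2), and by 4.45 without the third heterozygous library. The Apoe sum was within 0.02 of a whole number in only 1 library of 15, so reads were also divided with transcripts beyond these 2. The counts of Glul and of Vim were so in 1 library of 15 each, so their reads were divided with other transcripts too.

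**Figure D3:**
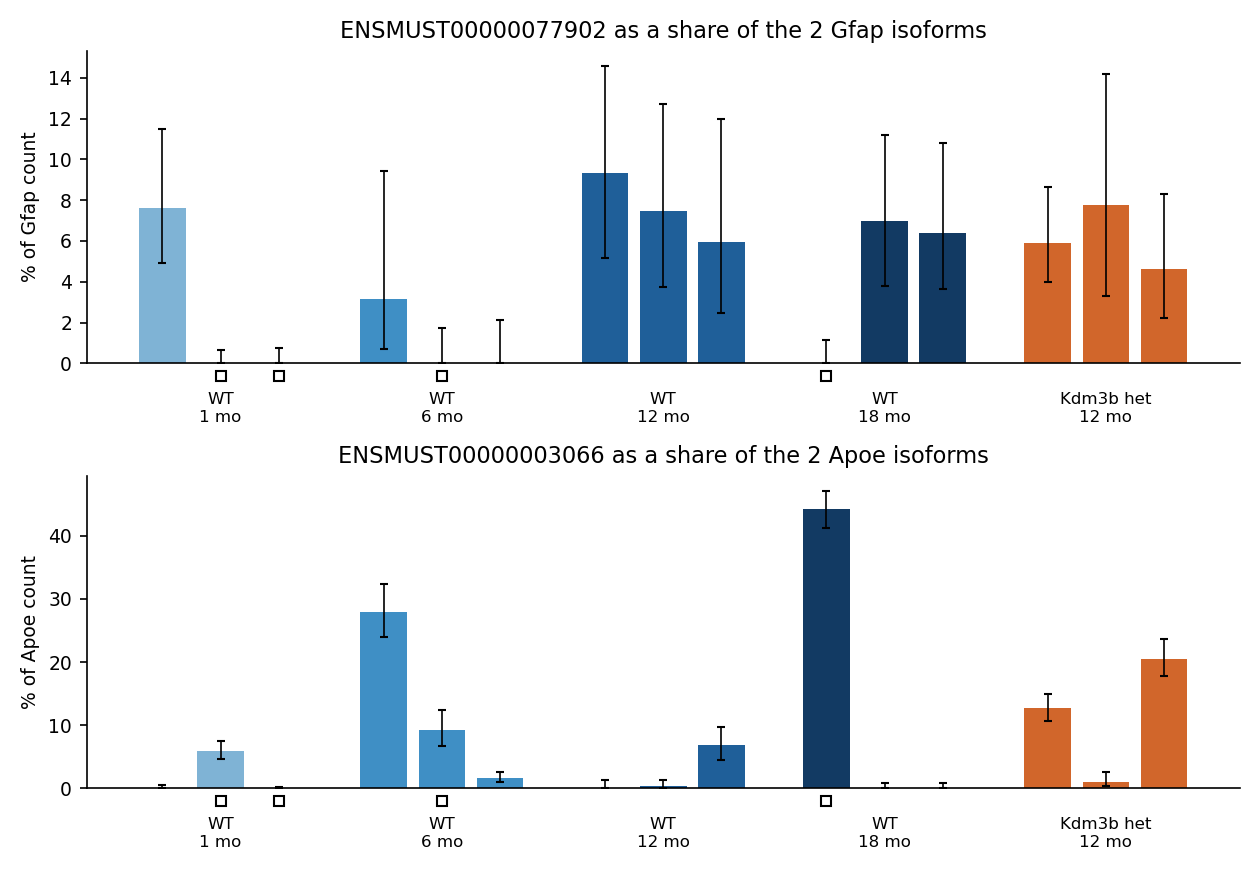
Share of the minor isoform in the summed count of Gfap (top) and Apoe (bottom) in each library, with exact binomial 95% intervals; open squares mark the 4 many-zero libraries. The Gfap minor isoform is at 0 in all 4 marked libraries, and the Apoe minor isoform reaches 44.2% in 1 library at 18 months.

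Over the 15 libraries Glul and Vim varied together. Pearson's r of their log2 CPM was 0.84 (permutation p = 0.00021, adjusted over 14 relations 0.00294) and Spearman's rho was 0.675 (permutation p = 0.00734, adjusted 0.103). Without the 2 libraries farthest in Glul, the second and the third at 18 months, r was 0.675, and without the many-zero libraries it was 0.957. On deviations from the group means r was 0.805 (permutation p = 0.0138, adjusted 0.0685). Scaled by library totals alone, r was 0.771. Of the other abundant transcripts, 165 of 14360 (1.15%) had a higher rho with Glul than Vim had, and 478 (3.33%) had a higher rho with Vim than Glul had.

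Gfap and Apoe also varied together, with r = 0.689 (permutation p = 0.00405, adjusted 0.0283) and rho = 0.604 (permutation p = 0.0196, adjusted 0.125). Without the 2 libraries farthest in Gfap, the second at 1 month and the first at 6 months, r was 0.721. Without the many-zero libraries it was 0.606, and on deviations from group means 0.618 (permutation p = 0.0536, adjusted 0.15). Of the other abundant transcripts, 237 (1.65%) had a higher rho with Gfap than Apoe had, and 649 (4.52%) a higher rho with Apoe than Gfap had. The filament genes Gfap and Vim had r = 0.108 (permutation p = 0.702, adjusted 0.756) and rho = 0.0929. Their r was 0.459 without the 2 libraries farthest in Gfap, 0.394 without the many-zero libraries and 0.319 on deviations from group means.

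Glul and Apoe had r = 0.599 (permutation p = 0.0184, adjusted 0.0857), and Vim and Apoe r = 0.467 (permutation p = 0.0792, adjusted 0.244). On deviations from group means these were 0.704 and 0.685, each with an adjusted permutation p of 0.0685, and both were above the value of Gfap and Apoe. Vim and Apoe were at 0.715 without the many-zero libraries and at 0.217 without the 2 farthest in Vim. The order of the pairs thus depended on the libraries and on the group means. Gfap and Glul had r = 0.379 (adjusted permutation p = 0.284). Against the share of transcripts at 0, r was 0.463 for Gfap, -0.0455 for Glul, -0.189 for Vim and 0.258 for Apoe. On deviations from group means it was 0.689 for Gfap (permutation p = 0.0359, adjusted 0.126), and the part of the share at 0 in the Gfap results was not tested. Against the log2 library total it was -0.129, -0.39, -0.412 and -0.291 in the same order, and no adjusted permutation p of these passed 0.05. The libraries of a relation share their scaling and composition, and the part of either in it was not tested.

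**Figure D4:**
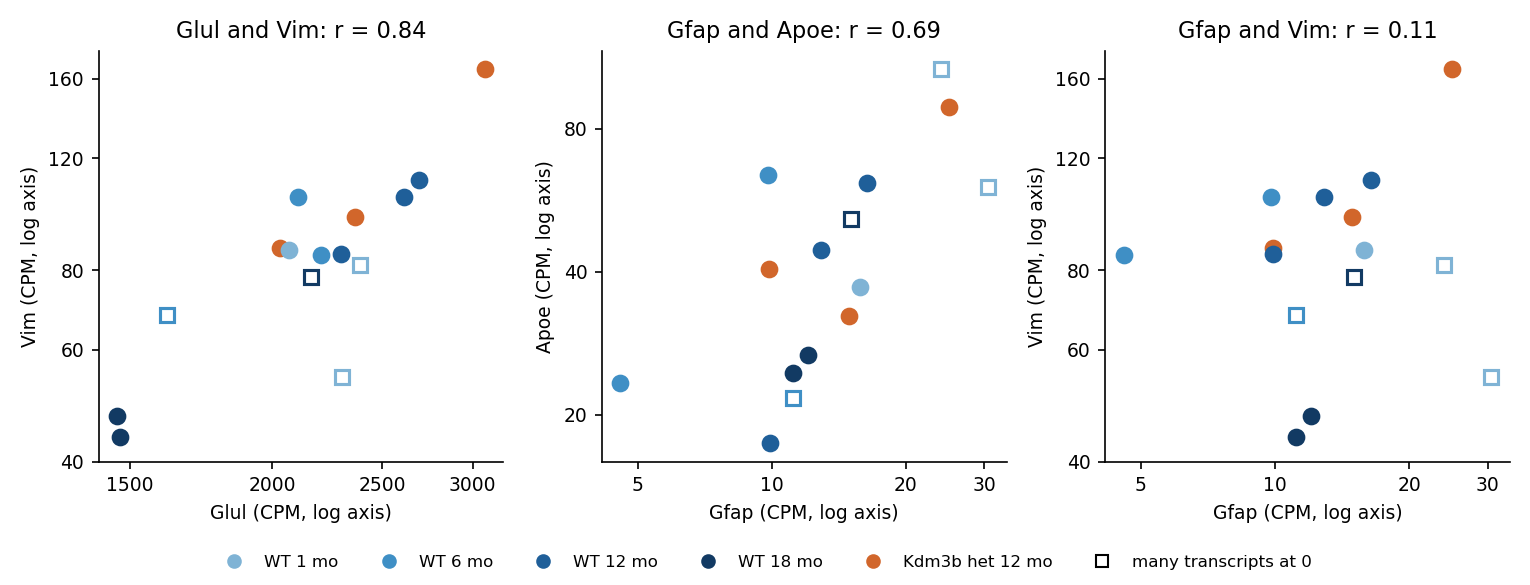
Levels of 3 pairs of genes in CPM on log axes, 1 point per library, coloured by group, with open squares for the 4 many-zero libraries. Pearson's r of log2 CPM was 0.84 for Glul and Vim, 0.689 for Gfap and Apoe and 0.108 for Gfap and Vim. Spearman's rho, on ranks, was 0.675, 0.604 and 0.0929 in the same order.

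The transcripts whose order over the 15 libraries was most like that of each gene are known here by identifier only. For Gfap they were ENSMUST00000008537 (rho 0.864) and ENSMUST00000125541 (0.854), and for Vim ENSMUST00000164930 and ENSMUST00000020420 (0.929 each). For Glul they were ENSMUST00000000153 (0.868) and ENSMUST00000034150 (0.857), and for Apoe ENSMUST00000148665 (0.943) and ENSMUST00000031692 (0.893). They were picked as the highest of 14361 abundant transcripts, so these values are a description.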

How the data were processed

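Per the labels' protocols, RNA was extracted from retina with Trizol and polyadenylated RNA was made into libraries with the TruSeq Stranded mRNA kit. According to the submitters' processing notes, the tools were RSEM 1.3.3, STAR 2.7.1a, edgeR 3.36.0, DESeq2 1.32.0, Trim Galore 0.6.6 and CASAVA, and the builds GRCm38 and mm10. Neither strand setting nor annotation release is given in the sources used here. Values are expected counts as deposited, which the authors estimated for each Ensembl transcript, dividing reads between transcripts of shared sequence. The 15 bulk libraries were used. Single-cell (4) and ChIP (19) samples were not analysed here.

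The 2 isoforms of Gfap and of Apoe were summed, expected counts were rounded, and edgeR 4.0.16 (R 4.3.3; quasi-likelihood test, TMM, robust, filter on low counts) was fitted over all 15 libraries with 5 group means, leaving 10 residual degrees of freedom. It tested 53950 rows, or 53952 with the isoforms apart, with Benjamini-Hochberg adjustment over all of them and a threshold of 0.05. Standard errors were derived from each log2 difference and F value, and intervals from the t distribution. Abundant transcripts have a mean of at least 10 CPM. Well-covered transcripts have a mean count of at least 20.

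Relations use log2 CPM with a prior count of 2 and 100000 resamples, and were adjusted over 14 relations, where 6 had been planned, because those with depth and the share at 0 were added. The text names the 4 genes, their isoforms and, for each gene, the 2 transcripts of highest Spearman's rho. Alternatives were DESeq2 1.42.0, limma 3.58.1 (voom), other scalings and filters, a replicate block and libraries left out. The edgeR test of heterozygous against wild type was also run on simulated counts. These had less spread than most abundant transcripts and no many-zero libraries, so the run says little about these data. The simulation covered no other comparison or method. The genes and tests were chosen with earlier results of these data known.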

Additional observations from a re-analysis of the deposited data

How the results depend on the processing

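Under 10 other settings and with each of the 15 libraries left out in turn, 459 of 500 pairwise differences of the 4 genes kept their direction and their side of the threshold, 39 turned direction and 2 passed. Most fits with 1 library left out dropped a library of neither group compared, so those differences could move little. Every adjusted p of the 4 genes in the main edgeR fit was 0.836 or more, far from the threshold. The count of 459 therefore says little about stability. The 100 tests of any age difference, which have no direction, stayed on their side of the threshold. The 2 that passed were the voom values from 12 to 18 months, -0.77 for Glul and -1.13 for Vim. Of 60 differences in isoform share with a library left out, 3 turned direction. Leaving out single libraries gave -2.40 to 19.7 points for Apoe at 18 against 12 months, -1.98 to 20.1 for Apoe at 18 against 1, and -2.77 to 1.05 for Gfap at 6 against 1. The cause of the changes below was not tested.

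In the order heterozygous, 6 against 1 month, 12 against 6, 18 against 12, 18 against 1 and any age, edgeR called 0, 0, 0, 1, 1 and 0 transcripts. DESeq2 called 393, 726, 744, 543, 1004 and 459, and limma's voom 87, 0, 64, 1034, 4 and 16. Without a filter 1 was called from 6 to 12 and 2 from 12 to 18 months. With only the groups compared, 0 were called for 18 against 12, 0 for 18 against 1 and 2 for any age. Without the many-zero libraries 3 were called for 18 against 1 and 2 for any age. With the third heterozygous library also left out, the counts were 1 (heterozygous), 9 (6 against 1), 6 (18 against 1) and 3 (any age). Leaving out single libraries gave 0 to 4 (heterozygous), 0 to 169 (6 against 1), 0 to 30 (12 against 6), 0 to 2 (18 against 12), 1 to 227 (18 against 1) and 0 to 69 (any age), and the counts of 169, 227 and 69 came without the first library at 1 month.

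For heterozygous against wild type, voom gave -0.21 for Gfap, -0.16 for Vim and -0.15 for Apoe. Without the many-zero libraries and the third heterozygous library these were -0.064, -0.11 and -0.17. Leaving out single libraries gave -0.070 to 0.65 for Gfap, -0.20 to 0.15 for Glul, -0.12 to 0.44 for Vim and -0.17 to 0.80 for Apoe. Glul was at 0.063 with median-ratio scaling and with DESeq2, 0.060 with the filter of 10 CPM and 0.031 with only the groups compared.

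Without the many-zero libraries, Glul was at 0.054 and Apoe at 0.22 for 6 against 1 month, and Apoe at -0.080 for 12 against 6. With the third heterozygous library also left out these were 0.051, 0.22 and -0.078. Leaving out single libraries gave Apoe -0.22 to 0.88 for 12 against 6. For 18 against 12 months Gfap was at 0.068 with median-ratio scaling, 0.058 with library totals, 0.12 with the filter of 10 CPM and 0.069 with DESeq2. Leaving out single libraries there gave -0.19 to 0.16 for Gfap and -0.69 to 0.14 for Apoe.

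With the replicate number as a block, 0 transcripts were called for 18 against 12 and 0 for 18 against 1, and Gfap was at 0.031 for 18 against 12 months. Same-numbered libraries shared only a number: the correlation of their deviations ran from -0.24 to 0.378 over 30 pairs, 4 were above 0.1, and the best match carried the same number for 7 of 15 libraries.

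Without the many-zero libraries r of Glul and Vim was 0.957. On deviations from group means it was 0.805, and 0.618 for Gfap and Apoe, and neither passed after adjustment. The filter of 10 CPM and the joint removal of the many-zero libraries and the third heterozygous library, were chosen after seeing the data. The minor Gfap isoform had at most 26.58 counts in a library, which limits the precision of its share.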
